A study of Mus musculus with 25 samples.

Results

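The genes described here act in mitosis and cytokinesis: 53 listed genes for the spindle, the kinetochore, the spindle checkpoint, chromosome condensation and the division of the cell body. They were taken as listed and matched by symbol to the platform annotation of a mouse gene array, by a rule that used no measured value. Of the 53 genes, 52 had a probe set of their own among the 19938 named genes, and all 52 passed the filter on dim probe sets that left 15951 genes for testing. Ccnb1, the gene of cyclin B1, was not analysed here.

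A cell enters mitosis when Cdk1 is activated by cyclins A and B. Its chromosomes then condense, attach through kinetochores to spindle microtubules, and are held by the spindle checkpoint until all are attached, after which the anaphase-promoting complex releases them and cytokinesis splits the cell. Transcripts of these genes are low in resting cells and peak in G2 and M phase, since their promoters are held off by the DREAM complex, which contains a relative of the retinoblastoma protein, and switched on by B-Myb and FoxM1. The retinoblastoma protein itself restrains E2F factors before S phase, and p53 lowers many mitotic transcripts through p21. Hepatocytes of a young mouse still divide, and those of an adult mostly rest.

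RNA came from frozen livers of mice of the strain FVB;129, hybridized to 25 one-colour arrays. In the knockouts an albumin-driven Cre recombinase, limited to hepatocytes within the liver, cut loxP-flanked Rb and p53 (called DKO here), p53 alone (p53KO) or Rb alone (RbKO). Mice labelled WT for both genes served as controls. The treatment was diethylnitrosamine (DEN), a carcinogen that alkylates DNA once hepatocytes have metabolized it. Mice aged 14 days received 20 mg/kg in the peritoneum, and their livers were collected 24 hours later. The groups were DEN DKO (5 arrays), DEN p53KO (5), DEN RbKO (4), DEN WT (5), untreated DKO (3) and untreated WT (3). The labels give the untreated animals no treatment, while the text of the series names saline as the control. Nothing in the labels says that arrays of a group came from separate animals, so p-values measure the spread between these arrays, which may in part be technical. In whole liver, fewer cells of a type and less RNA per cell cannot be told apart.

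By the form of their names, the arrays belong to 3 sets. Set 1 (16 arrays) holds all 6 groups, set 2 (4 arrays) holds DEN RbKO replicate 4, DEN WT replicates 4 and 5 and untreated WT replicate 3, and set 3 (5 arrays) holds DEN DKO replicates 4 and 5 and DEN p53KO replicates 3 to 5. Replicate numbers follow the order of deposit and only name arrays. On the leading principal component of all tested genes, which held 25.8% of the variance, the 4 arrays of set 2 stood apart from the other 21. Of 8 listed hepatocyte markers 7 were measured, and their mean log2 signal was 11.06 to 11.89 over the arrays. Rb1 spanned 5.18 to 5.82 in DEN DKO, 5.56 to 5.93 in DEN p53KO, 5.55 to 6.28 in DEN RbKO and 5.04 to 6.02 in DEN WT livers. It was 4.76 to 5.02 in untreated DKO, against 5.30 to 5.76 in untreated WT livers. The DEN groups overlapped. Where this probe set lies relative to the loxP sites is not given in the sources used here, so it does not check the genotypes.

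Over the 52 genes together, the mean log2 signal was by group mean lowest in untreated WT livers and highest in the 3 DEN-treated knockout groups. It was 6.61, 6.53 and 6.74 in set 1 and 6.60 and 6.46 in set 3 for DEN DKO, 6.28 and 6.08 in set 1 and 6.58, 6.76 and 6.72 in set 3 for DEN p53KO, and 6.43, 6.32 and 6.54 in set 1 and 6.44 in set 2 for DEN RbKO. DEN WT livers gave 5.95, 6.05 and 6.10 in set 1 but 4.93 and 4.90 in set 2. Untreated DKO livers gave 5.84, 5.77 and 6.15, and untreated WT livers 5.00 and 5.34 in set 1 and 5.41 in set 2. All 14 DEN-treated knockout arrays except DEN p53KO replicate 2 lay above the 3 DEN WT arrays of set 1. The 2 DEN WT arrays of set 2 were the lowest of the 25, below all 3 untreated WT arrays. Group means were 6.59 ± 0.11 in DEN DKO (SD, n = 5), 6.49 ± 0.29 in DEN p53KO (n = 5), 6.43 ± 0.09 in DEN RbKO (n = 4), 5.58 ± 0.61 in DEN WT (n = 5), 5.92 ± 0.20 in untreated DKO (n = 3) and 5.25 ± 0.22 in untreated WT (n = 3). DEN WT livers thus lay below untreated DKO livers over all arrays. Within set 1, which holds all untreated DKO arrays, the DEN WT mean was 6.03, above the 5.92 of untreated DKO livers.

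**Figure D1:**
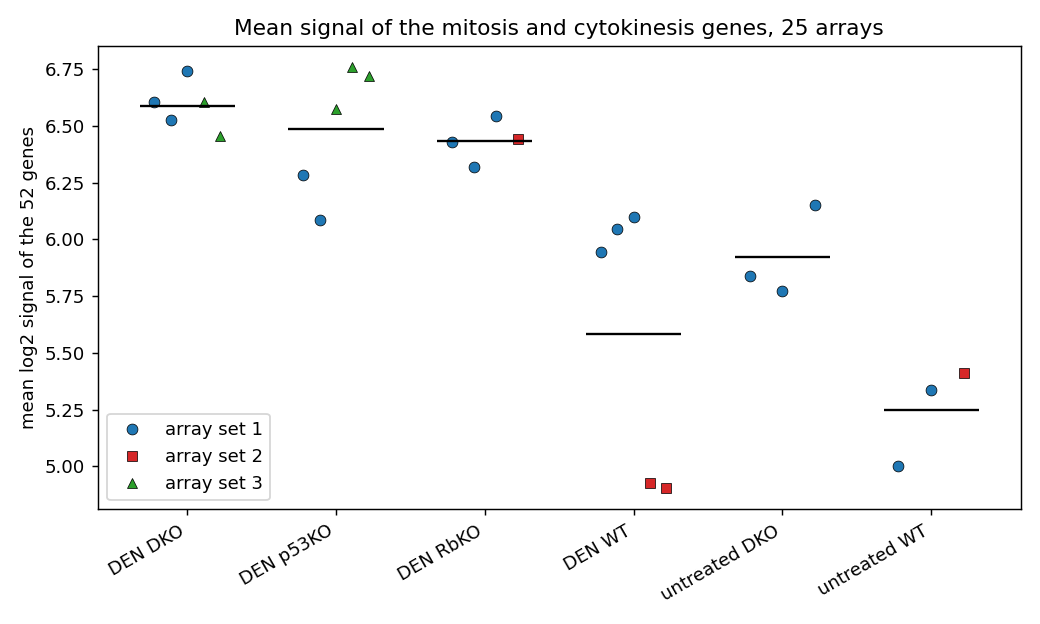
Mean log2 signal of the 52 genes (y axis) on each of the 25 arrays, by group (x axis), with the array set as the marker and the group mean as a bar. The DEN WT arrays split into 3 of set 1 at 5.95 to 6.10 and 2 of set 2 at 4.93 and 4.90.

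The genes moved as a block. The correlation of a gene with the mean of the other 51 over the 25 arrays exceeded 0.9 for 32 genes and 0.5 for 50, with a median of 0.92. These arrays share groups and array sets, so the values describe the data and are no test. Top2a, the topoisomerase that untangles sister chromatids, followed the rest most closely (r = 0.99), and Kif11, Smc2 and Prc1 followed it (r = 0.98 each). Mybl2, the gene of B-Myb, ran against the block (r = -0.37), and Espl1, the gene of separase, and Plk1 followed it weakly (r = 0.31 and 0.51). Mybl2 and Espl1 were dim, with mean log2 signals of 3.99 and 3.95. Both lay under the 40th percentile of probe sets with 1 symbol (4.15), so their values may hold little signal. Of the 52 genes, 18 had their lowest value on DEN WT replicate 5, 16 on DEN WT replicate 4 and 12 on untreated WT replicate 1. The highest value fell on DEN p53KO replicate 5 for 13 genes, on DEN p53KO replicate 4 for 12 and on DEN DKO replicate 3 for 11.

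**Figure D2:**
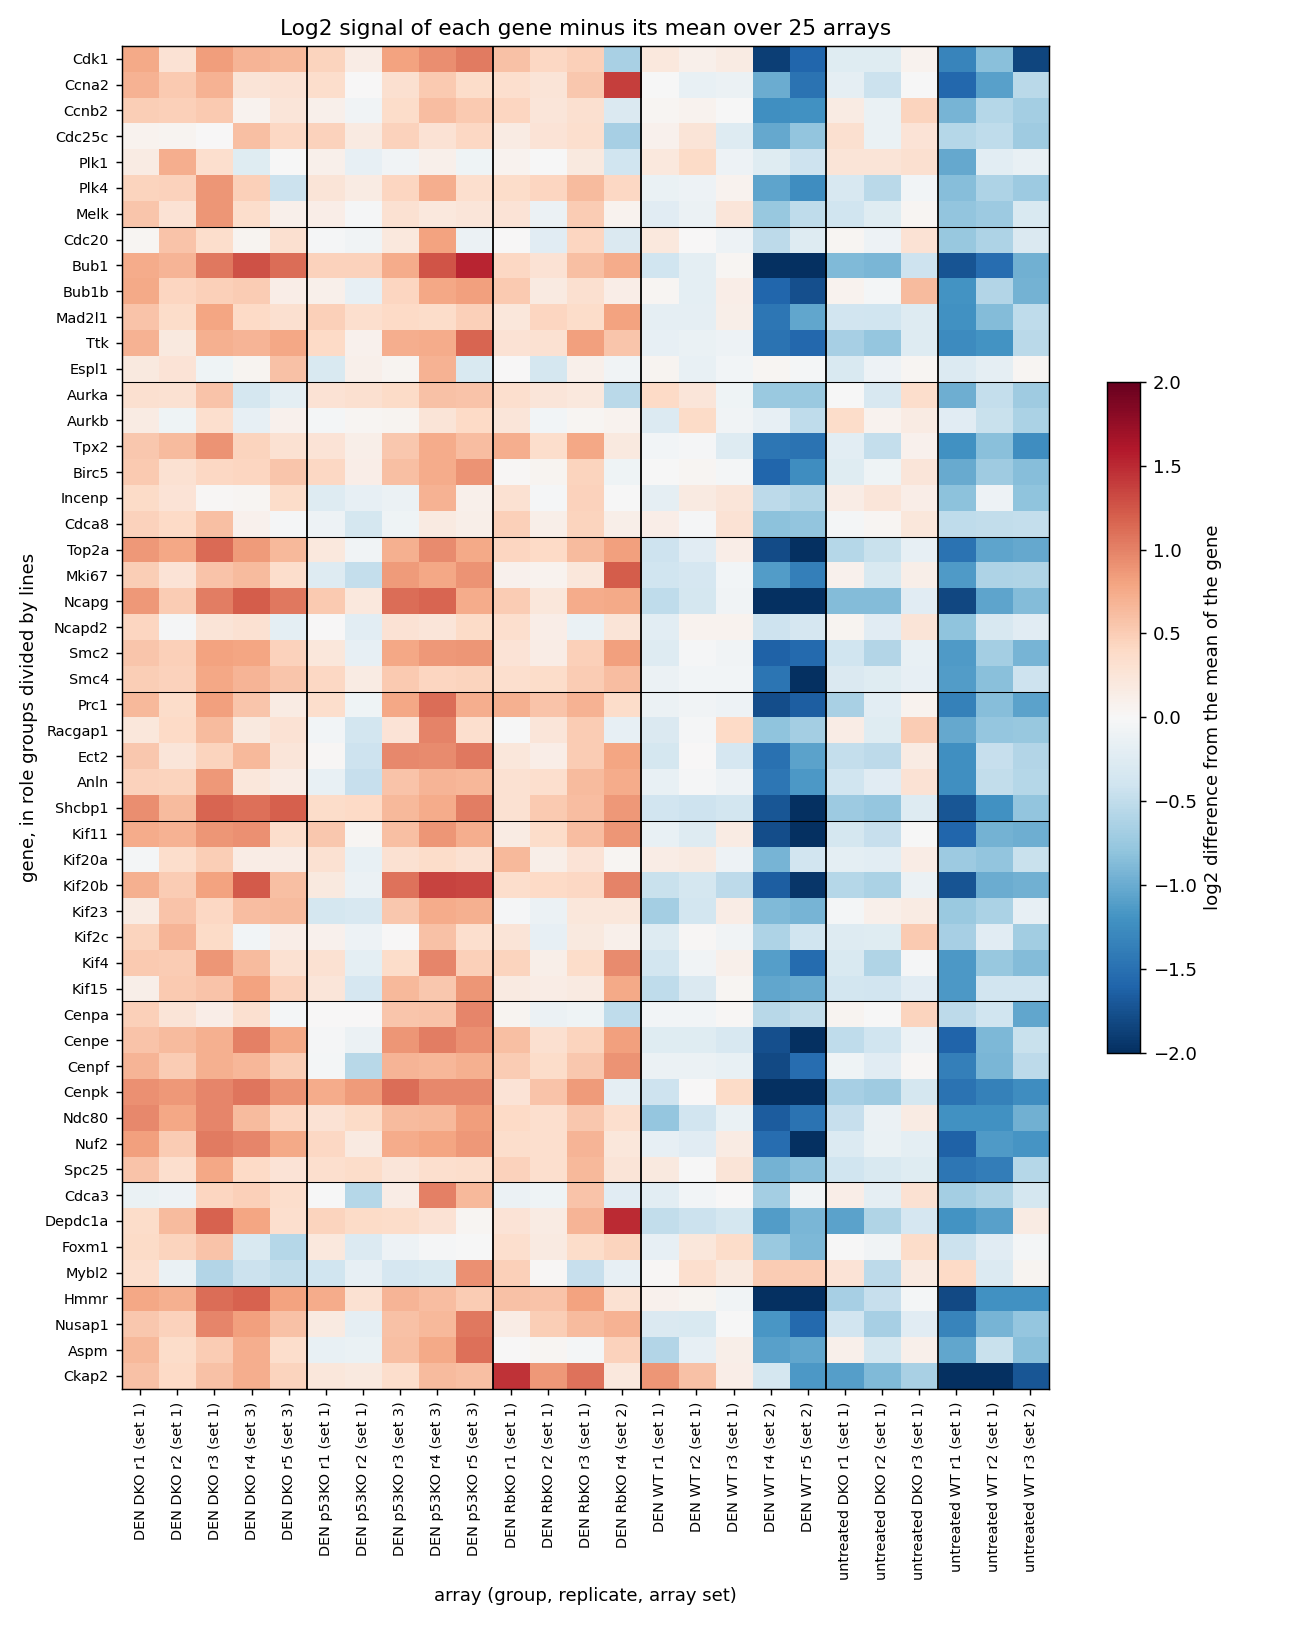
Log2 signal of each of the 52 genes (y axis, in role groups divided by lines) minus its mean over the 25 arrays (x axis, by group, replicate and set), from blue (lower) to red (higher), with the colour scale ending at 2 either way. The DEN WT columns of set 2 are the bluest, and the rows of Mybl2 and Espl1 do not follow the other rows.

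Promoters are shown for 4 genes that the results return to. RefSeq windows from 250 bases before to 50 bases after the start were found for 43 of the 52 genes (build GRCm38.p6). Both strands were searched, each motif on its own, so that matches could overlap. The core of the cell cycle homology region (CHR), TTTGAA, to which DREAM binds, was present in 33 of 43 genes (76.7%), against 20.2% of 27025 genes with such a window. The CCAAT box, letters CCAAT, was present in 31 (72.1%), against 41.1% of all genes, and both motifs together in 28 (65.1%), against 8.97% of all genes. The E2F core GCGGGAA was present in 3 (6.98%), against 5.29% of all genes. In the windows below the capitals mark the CHR core and the CCAAT box, read on either strand, so that a box on the other strand appears as ATTGG and a core on the other strand as TTCAAA.
Cdk1 promoter, chr10:69352863-69353162, minus strand: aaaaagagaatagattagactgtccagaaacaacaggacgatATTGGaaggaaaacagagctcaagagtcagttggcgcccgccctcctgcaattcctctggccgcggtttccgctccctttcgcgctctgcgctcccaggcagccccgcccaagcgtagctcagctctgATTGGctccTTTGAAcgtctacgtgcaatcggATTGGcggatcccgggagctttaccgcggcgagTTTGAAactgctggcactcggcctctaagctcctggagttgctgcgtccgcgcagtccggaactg
Top2a promoter, chr11:99024140-99024439, minus strand: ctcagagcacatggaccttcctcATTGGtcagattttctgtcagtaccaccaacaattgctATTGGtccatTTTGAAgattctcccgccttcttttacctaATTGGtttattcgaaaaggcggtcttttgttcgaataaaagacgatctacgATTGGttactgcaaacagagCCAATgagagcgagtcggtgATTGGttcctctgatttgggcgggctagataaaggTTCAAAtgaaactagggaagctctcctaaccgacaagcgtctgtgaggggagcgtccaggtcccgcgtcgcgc
Ckap2 promoter, chr8:22185770-22186069, minus strand: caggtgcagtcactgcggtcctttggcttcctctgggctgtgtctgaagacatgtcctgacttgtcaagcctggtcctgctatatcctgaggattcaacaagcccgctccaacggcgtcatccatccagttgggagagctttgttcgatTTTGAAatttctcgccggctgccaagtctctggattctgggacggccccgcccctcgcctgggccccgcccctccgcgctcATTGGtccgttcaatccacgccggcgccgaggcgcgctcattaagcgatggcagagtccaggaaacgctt
Ndc80 promoter, chr17:71526808-71527107, minus strand: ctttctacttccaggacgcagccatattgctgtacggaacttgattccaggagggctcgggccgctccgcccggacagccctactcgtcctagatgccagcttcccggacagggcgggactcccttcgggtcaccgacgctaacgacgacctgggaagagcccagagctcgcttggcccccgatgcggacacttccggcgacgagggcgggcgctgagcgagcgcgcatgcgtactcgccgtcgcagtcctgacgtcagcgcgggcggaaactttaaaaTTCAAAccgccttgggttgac
The windows of Cdk1 and Top2a each held 2 CHR cores and several CCAAT boxes, that of Ckap2 held 1 of each, and that of Ndc80 held a CHR core without a CCAAT box. All 4 genes shown thus held a CHR core. The 10 genes without one were Plk4, Bub1, Mad2l1, Cenpe, Cenpk, Nuf2, Birc5, Nusap1, Melk and Mybl2. A match describes the letters and is not shown to be a bound site. The 33 genes with a CHR core had a median log2 difference of 0.74 between DEN DKO and DEN WT, and the 10 without it 1.002. For DEN RbKO against DEN WT these medians were 0.84 and 1.03.

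Among the kinases and cyclins, Cdk1, the kinase that drives entry into mitosis, read 7.38, 6.91 and 7.47 in set 1 and 7.30 and 7.28 in set 3 in DEN DKO livers and 7.08 and 6.78 in set 1 and 7.43, 7.56 and 7.67 in set 3 in DEN p53KO livers. Cdk1 in DEN RbKO livers was at 7.22, 7.05 and 7.11 in set 1 and 5.97 in set 2, against 6.84, 6.74 and 6.79 in set 1 and 4.74 and 5.04 in set 2 in DEN WT livers. For Cdk1, untreated DKO livers gave 6.38, 6.39 and 6.70, against 5.31 and 5.79 in set 1 and 4.79 in set 2 in untreated WT livers. Every DEN-treated knockout array but DEN RbKO replicate 4 lay at or above 6.78, a height that 2 of the DEN WT arrays of set 1 reached (6.84 and 6.79), while both DEN WT arrays of set 2 (4.74 and 5.04) lay below both untreated WT arrays of set 1 and on either side of that of set 2. Plk1, the Polo-like kinase that acts from mitotic entry to cytokinesis, spanned 5.23 to 6.21 in DEN DKO, 5.31 to 5.58 in DEN p53KO, 5.07 to 5.67 in DEN RbKO and 5.06 to 5.85 in DEN WT livers. It was 5.73, 5.73 and 5.79 in untreated DKO and 4.46 and 5.26 in set 1 and 5.33 in set 2 in untreated WT livers. The 4 DEN groups overlapped, and the untreated DKO arrays lay above all untreated WT, DEN p53KO and DEN RbKO arrays. Ccna2 (cyclin A2) and Ccnb2 (cyclin B2) correlated with the block at 0.92 each, as did Plk4, which controls centriole duplication (0.93). Cdc25c, the phosphatase that activates Cdk1, and Melk, a kinase of dividing cells, correlated with it at 0.76 and 0.90.

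In the spindle checkpoint, Bub1, a kinase of the unattached kinetochore, read 6.97, 6.90 and 7.27 in set 1 and 7.50 and 7.33 in set 3 in DEN DKO livers and 6.68 and 6.67 in set 1 and 6.96, 7.47 and 7.75 in set 3 in DEN p53KO livers. Bub1 in DEN RbKO livers was at 6.63, 6.50 and 6.82 in set 1 and 6.96 in set 2, against 5.83, 6.03 and 6.26 in set 1 and 3.88 and 4.17 in set 2 in DEN WT livers. For Bub1, untreated DKO livers gave 5.34, 5.30 and 5.81, against 4.50 and 4.69 in set 1 and 5.26 in set 2 in untreated WT livers. All 14 DEN-treated knockout arrays lay above all 5 DEN WT arrays, and the 2 DEN WT arrays of set 2 were the lowest of all 25. Ttk (the kinase Mps1), Bub1b (BubR1) and Mad2l1 (Mad2), further parts of the checkpoint, correlated with the block at 0.96, 0.94 and 0.95. Cdc20, through which the checkpoint holds back the anaphase-promoting complex, did so at 0.72. Espl1, the protease that opens cohesin rings, stayed between 3.61 and 4.65 on all 25 arrays.

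The chromosomal passenger complex was mixed. Aurkb, its kinase Aurora B, spanned 5.17 to 5.66 in DEN DKO, 5.28 to 5.72 in DEN p53KO, 5.28 to 5.57 in DEN RbKO and 4.81 to 5.71 in DEN WT livers, against 5.40 to 5.69 in untreated DKO and 4.69 to 5.09 in untreated WT livers. The 4 DEN groups overlapped. Birc5 (survivin), which brings the complex to the centromere, read 8.22, 8.01 and 8.11 in set 1 and 8.13 and 8.26 in set 3 in DEN DKO livers and 8.10 and 7.83 in set 1 and 8.30, 8.44 and 8.60 in set 3 in DEN p53KO livers. Birc5 in DEN RbKO livers was at 7.72, 7.76 and 8.15 in set 1 and 7.60 in set 2, against 7.69, 7.74 and 7.66 in set 1 and 6.11 and 6.46 in set 2 in DEN WT livers. For Birc5, untreated DKO livers gave 7.46, 7.61 and 7.94, against 6.68 and 6.99 in set 1 and 6.85 in set 2 in untreated WT livers. The 14 DEN-treated knockout arrays lay between 7.60 and 8.60, and the 3 DEN WT arrays of set 1 between 7.66 and 7.74, with the set 2 arrays at 6.11 and 6.46. Tpx2, the activator of Aurora A, followed the block closely (r = 0.97), whereas Aurka (Aurora A itself), Incenp and Cdca8 (borealin) did so at 0.78, 0.74 and 0.84.

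For the chromosomes themselves, Top2a read 9.02, 8.93 and 9.29 in set 1 and 9.00 and 8.81 in set 3 in DEN DKO livers and 8.37 and 8.08 in set 1 and 8.87, 9.10 and 8.92 in set 3 in DEN p53KO livers. Top2a in DEN RbKO livers was at 8.58, 8.55 and 8.79 in set 1 and 8.98 in set 2, against 7.74, 7.92 and 8.28 in set 1 and 6.36 and 6.07 in set 2 in DEN WT livers. For Top2a, untreated DKO livers gave 7.58, 7.71 and 8.00, against 6.67 and 7.11 in set 1 and 7.13 in set 2 in untreated WT livers. All DEN DKO and all DEN RbKO arrays lay above all DEN WT arrays, while DEN p53KO replicates 1 and 2 of set 1 lay near the highest DEN WT array. Mki67, which coats mitotic chromosomes and is the source of the Ki-67 antigen, read 7.71, 7.49 and 7.79 in set 1 and 7.85 and 7.56 in set 3 in DEN DKO livers and 6.96 and 6.74 in set 1 and 8.06, 7.99 and 8.12 in set 3 in DEN p53KO livers. Mki67 in DEN RbKO livers was at 7.30, 7.28 and 7.45 in set 1 and 8.43 in set 2, against 6.82, 6.88 and 7.17 in set 1 and 6.10 and 5.84 in set 2 in DEN WT livers. For Mki67, untreated DKO livers gave 7.30, 6.92 and 7.33, against 6.09 and 6.60 in set 1 and 6.62 in set 2 in untreated WT livers. Of the set 1 arrays of DEN p53KO, replicate 1 lay among the 3 DEN WT arrays of set 1 and replicate 2 below them, and those of set 3 lay above them. The condensin genes Smc2, Smc4 and Ncapg correlated with the block at 0.98, 0.95 and 0.97, and Ncapd2 at 0.81.

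Of the kinetochore genes, Cenpf, an outer kinetochore and coiled-coil protein, read 6.98, 6.81 and 7.02 in set 1 and 6.98 and 6.80 in set 3 in DEN DKO livers and 6.27 and 5.76 in set 1 and 6.98, 6.98 and 7.02 in set 3 in DEN p53KO livers. Cenpf in DEN RbKO livers was at 6.82, 6.67 and 6.85 in set 1 and 7.22 in set 2, against 6.20, 6.19 and 6.16 in set 1 and 4.50 and 4.78 in set 2 in DEN WT livers. For Cenpf, untreated DKO livers gave 6.23, 6.08 and 6.34, against 4.94 and 5.39 in set 1 and 5.79 in set 2 in untreated WT livers. The DEN WT arrays of set 2 were again lowest, and DEN p53KO replicate 2 (5.76) lay below the 3 DEN WT arrays of set 1. Ndc80, whose complex binds the microtubule end, read 7.50, 7.32 and 7.52 in set 1 and 7.17 and 6.98 in set 3 in DEN DKO livers and 6.84 and 6.93 in set 1 and 7.18, 7.19 and 7.37 in set 3 in DEN p53KO livers. Ndc80 in DEN RbKO livers was at 6.95, 6.88 and 7.08 in set 1 and 6.89 in set 2, against 5.78, 6.17 and 6.41 in set 1 and 4.88 and 5.07 in set 2 in DEN WT livers. For Ndc80, untreated DKO livers gave 6.08, 6.43 and 6.71, against 5.34 and 5.34 in set 1 and 5.58 in set 2 in untreated WT livers. Each of the 14 DEN-treated knockout arrays exceeded each of the 5 DEN WT arrays for Ndc80. Its partner in that complex, Nuf2, ranged over 3.45 log2 units and Spc25 over 2.22, Cenpk of the inner kinetochore over 3.69 and the kinetochore motor Cenpe over 3.06. Cenpa, the histone H3 variant that marks the centromere, ranged over 2.02.

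Kif11, the kinesin that pushes spindle poles apart, read 6.97, 6.93 and 7.12 in set 1 and 7.15 and 6.59 in set 3 in DEN DKO livers and 6.76 and 6.26 in set 1 and 6.84, 7.12 and 6.95 in set 3 in DEN p53KO livers. Kif11 in DEN RbKO livers was at 6.40, 6.60 and 6.85 in set 1 and 7.11 in set 2, against 6.09, 5.97 and 6.40 in set 1 and 4.46 and 4.17 in set 2 in DEN WT livers. For Kif11, untreated DKO livers gave 5.88, 5.77 and 6.23, against 4.64 and 5.29 in set 1 and 5.26 in set 2 in untreated WT livers. Among the kinesins the range over arrays was widest for Kif20b (3.29), followed by Kif11 (2.97), Kif4 (2.52), Kif15 (2.03), Kif23 (1.67), Kif20a (1.58) and Kif2c (1.38). Kif11 and Kif15 work in spindle assembly, Kif4 in chromosome shape and the midzone, Kif2c in removing microtubule ends, and Kif20a, Kif20b and Kif23 in cytokinesis. The 4 DEN groups overlapped for Kif2c and Kif20a.

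In cytokinesis, Anln (anillin), a scaffold of the contractile ring, read 5.87, 5.85 and 6.27 in set 1 and 5.62 and 5.55 in set 3 in DEN DKO livers and 5.25 and 4.94 in set 1 and 5.98, 6.09 and 6.07 in set 3 in DEN p53KO livers. Anln in DEN RbKO livers was at 5.72, 5.74 and 6.04 in set 1 and 6.15 in set 2, against 5.25, 5.39 and 5.30 in set 1 and 3.96 and 4.26 in set 2 in DEN WT livers. For Anln, untreated DKO livers gave 5.01, 5.18 and 5.69, against 4.19 and 4.91 in set 1 and 4.84 in set 2 in untreated WT livers. DEN p53KO replicate 1 lay at the lowest of the 3 DEN WT arrays of set 1 and replicate 2 (4.94) below them, whereas those of set 3 lay above. Shcbp1, a midbody protein that binds Shc, had a range over arrays of 3.36, Prc1, the bundler of midzone microtubules, 2.88, Ect2, the activator of RhoA, 2.55 and Racgap1, of the centralspindlin complex, 2.00.

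Among spindle-associated proteins, Ckap2, a microtubule-binding protein, had a pattern of its own. It read 7.43, 7.23 and 7.43 in set 1 and 7.57 and 7.29 in set 3 in DEN DKO livers and 7.06 and 7.04 in set 1 and 7.19, 7.47 and 7.45 in set 3 in DEN p53KO livers. Ckap2 in DEN RbKO livers was at 8.28, 7.71 and 7.93 in set 1 and 7.05 in set 2, against 7.72, 7.43 and 6.98 in set 1 and 6.50 and 5.70 in set 2 in DEN WT livers. For Ckap2, untreated DKO livers gave 5.74, 5.95 and 6.19, against 4.83 and 4.72 in set 1 and 5.13 in set 2 in untreated WT livers. Apart from DEN WT replicate 5 (5.70), every DEN array lay above all untreated arrays, and the highest 2 values were in DEN RbKO livers of set 1. Hmmr, Nusap1 and Aspm, 3 further spindle proteins, correlated with the block at 0.97, 0.97 and 0.92, and Ckap2 at 0.78.

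Neither of the transcription factors, FoxM1 and B-Myb, was called in any of the 10 comparisons over all arrays. Foxm1 read 5.53, 5.58 and 5.71 in set 1 and 4.84 and 4.58 in set 3 in DEN DKO livers and 5.35 and 4.86 in set 1 and 5.05, 5.11 and 5.13 in set 3 in DEN p53KO livers. Foxm1 in DEN RbKO livers was at 5.48, 5.32 and 5.50 in set 1 and 5.58 in set 2, against 4.97, 5.37 and 5.51 in set 1 and 4.40 and 4.24 in set 2 in DEN WT livers. For Foxm1, untreated DKO livers gave 5.14, 5.07 and 5.50, against 4.71 and 4.92 in set 1 and 5.10 in set 2 in untreated WT livers. Its DEN DKO arrays of set 3 lay below the 3 DEN WT arrays of set 1, and those of DEN DKO in set 1 above them. Mybl2 read 4.33, 3.87 and 3.42 in set 1 and 3.57 and 3.51 in set 3 in DEN DKO livers and 3.60 and 3.83 in set 1 and 3.66, 3.69 and 4.91 in set 3 in DEN p53KO livers. Mybl2 in DEN RbKO livers was at 4.47, 4.02 and 3.54 in set 1 and 3.83 in set 2, against 4.02, 4.32 and 4.19 in set 1 and 4.51 and 4.50 in set 2 in DEN WT livers. For Mybl2, untreated DKO livers gave 4.27, 3.48 and 4.17, against 4.40 and 3.73 in set 1 and 4.05 in set 2 in untreated WT livers. The groups overlapped, DEN p53KO replicate 5 was highest (4.91), and the DEN WT arrays of set 2, lowest for the block, stood at 4.51 and 4.50. Depdc1a, a gene of dividing cells with a DEP domain, is described with the comparisons, and Cdca3, a regulator of mitotic entry, correlated with the block at 0.70.

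**Figure D3:**
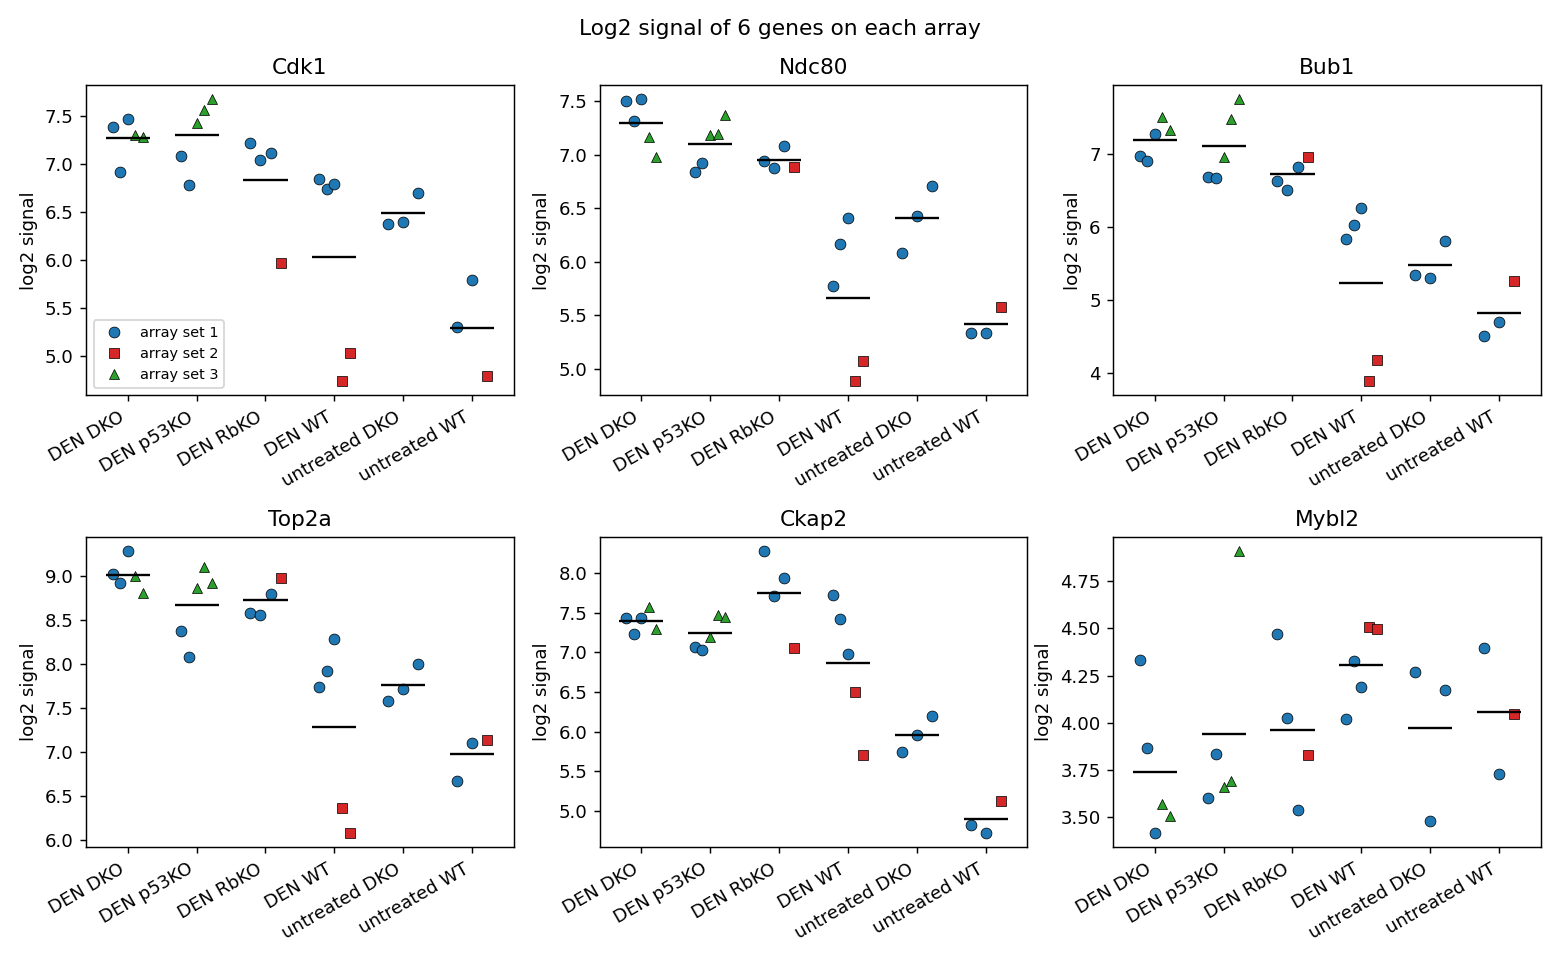
Log2 signal (y axis) of Cdk1, Ndc80, Bub1, Top2a, Ckap2 and Mybl2 on each array, by group (x axis), with the array set as the marker and the group mean as a bar. In the plots of Ndc80 and Bub1 every DEN-treated knockout array lies above every DEN WT array, and Mybl2 shows no such order.

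Differences between groups were fitted over all 25 arrays with limma, with the array set as a term. A gene was called at an adjusted p under 0.05 over the 15951 genes tested, and SE is limma's moderated standard error. Medians over the 52 genes are set beside the median of all genes tested, and counts beside the share of all genes called.

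The difference of these genes between DEN and untreated WT livers was not alike in the array sets. Over all arrays 3 of 52 genes rose, against 2.08% of all genes, and 0 fell, against 1.91%, while 13 had an unadjusted p under 0.05. The median difference was 0.33, and 0.02 over all genes. The 3 were Ckap2 by 2.02 (SE 0.23, adjusted p = 6.28e-06), Cdk1 by 0.82 (SE 0.19, adjusted p = 0.0103) and Spc25 by 0.89 (SE 0.21, adjusted p = 0.0143). Spc25 is a member of the NDC80 complex. Without untreated WT replicate 1 the count was 1, since Cdk1 (adjusted p = 0.154) and Spc25 (adjusted p = 0.168) were lost, without untreated WT replicate 2 it was 2, and without untreated WT replicate 3 it was 13. All genes called higher numbered 142, 161 and 361 in the same order, against 331 over all arrays. Ckap2 remained called with each array left out, at adjusted p up to 0.000297.

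Within set 1, in 3 DEN against 2 untreated WT arrays, 40 genes rose, against 5% of all genes, with a median of 0.84. All 3 DEN arrays lay above both untreated arrays for 45 genes, against 20.4% of all genes. Within set 2, in 2 DEN against 1 untreated WT array, the 52 genes had a median of -0.60. Both DEN arrays lay below the untreated array for 40 genes, against 33.9% of all genes. With 1 untreated array the spread of that group was not measured in set 2, so its differences are given without a test. Ckap2 had a difference of 2.60 (adjusted p = 2.9e-07) within set 1 and 0.97 within set 2, Cdk1 1.24 (adjusted p = 0.00015) and 0.10, and Spc25 1.57 (adjusted p = 1.53e-06) and -0.32. Bub1 was at 1.44 (adjusted p = 3.14e-05) within set 1 and -1.23 within set 2.

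The difference between the sets was itself tested in a fit with a mean for each group in each set, chosen after the split was seen. It gives the size of a split already seen and is no independent evidence of it. Its response in set 2 rests on 1 untreated WT array, which is assumed to vary like the other groups. The response of set 1 minus that of set 2 was positive and called for 39 of 52 genes, against 3.9% of all genes, and negative and called for 0, against 4.13%, with a median of 1.33. It was 2.22 (SE 0.24, adjusted p = 1.8e-05) for Smc4 and 2.67 (SE 0.33, adjusted p = 4.29e-05) for Bub1. Ccng1, a target of p53 that is no member of the list, was high on the DEN WT arrays of both sets. It read 10.05, 10.04 and 9.69 in set 1 and 9.94 and 9.94 in set 2. In untreated WT livers Ccng1 read 7.13 and 6.98 in set 1 and 8.12 in set 2. It spanned 8.73 to 9.86 in DEN DKO, against 6.93 to 7.26 in untreated DKO livers. In DEN p53KO livers Ccng1 spanned 8.76 to 9.49. High Ccng1 after DEN was thus not limited to WT livers. Hepatocyte markers on the DEN WT arrays of set 2 averaged 11.17 and 11.42, against 11.27 on the untreated WT array of set 2. Markers of neutrophils and myeloid precursors, all 10 measured, averaged 5.05 to 5.29 on the DEN WT arrays of set 1 and 4.43 and 4.81 on those of set 2, against 4.60 and 4.64 in set 1 and 4.78 in set 2 in untreated WT livers. Those of macrophages, all 8 measured, averaged 6.31 to 6.99 on the DEN WT arrays of set 1 and 6.05 and 6.24 on those of set 2, against 6.38 and 6.55 in set 1 and 6.24 in set 2 in untreated WT livers. Both lists were thus lower on the DEN WT arrays of set 2 than on those of set 1. Macrophage markers were also lower in set 2 in untreated WT livers. Erythroid markers ran the other way, at 4.25 and 4.30 on the DEN WT arrays of set 2, against 4.14 to 4.24 on those of set 1. The other marker lists overlapped between the DEN WT arrays of the sets. On DEN RbKO replicate 4, also of set 2, the neutrophil and macrophage lists averaged 4.40 and 6.04, while its mean over the 52 genes was 6.44. The part of these cell types in the result was not tested.

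**Figure D4:**
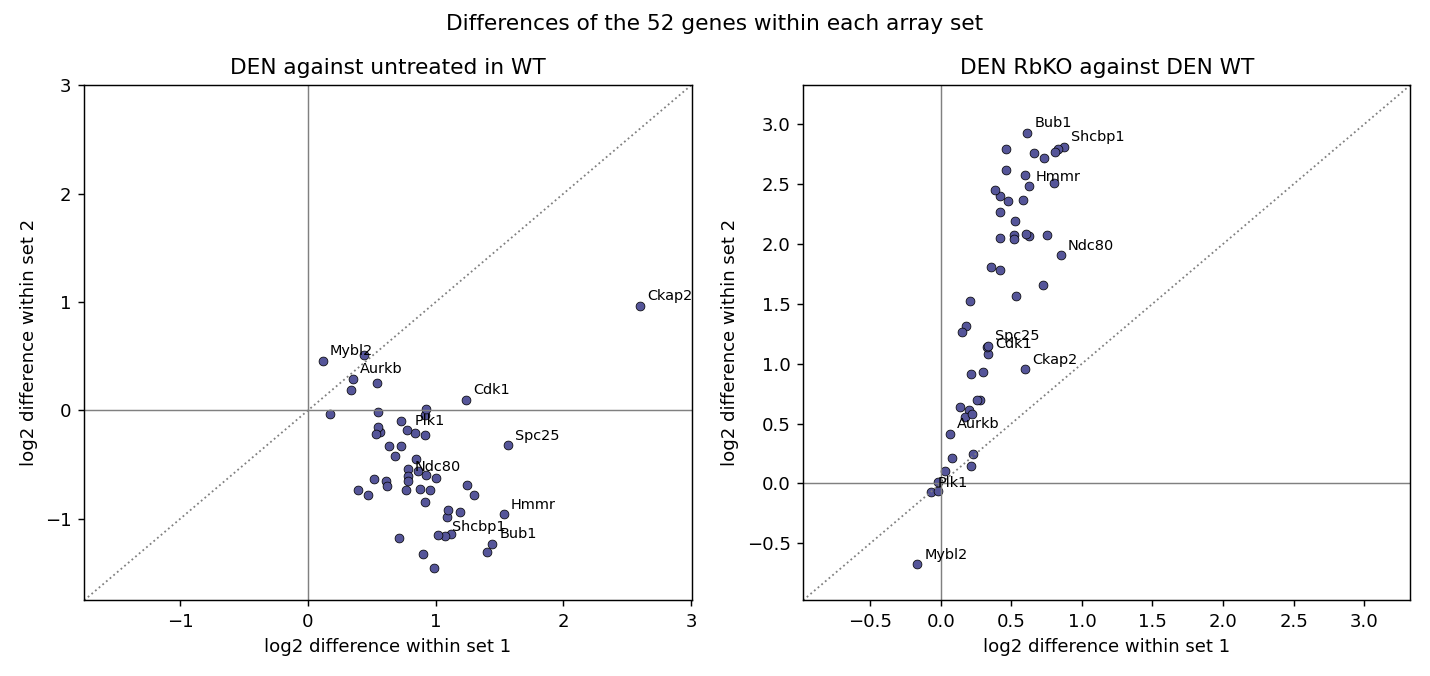
Log2 difference of each of the 52 genes within set 1 (x axis) against that within set 2 (y axis), for DEN against untreated WT livers (left) and for DEN RbKO against DEN WT livers (right), with equality as a dotted line. On the left most genes lie above 0 within set 1 and below 0 within set 2, and on the right most lie above the line.

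In DKO livers many of these transcripts were higher after DEN. All 3 untreated DKO arrays are of set 1, so this comparison cannot be set side by side between sets. Of 52 genes 23 rose, against 4.49% of all genes, and 0 fell, against 16.5%. The median was 0.64, and -0.004 over all genes. With each array centred on its median over all probe sets, the median of all genes was -0.10 and that of the 52 was 0.53, and 15 of the 52 rose. Over all genes that scaling called 356 higher and 3563 lower, against 716 and 2628 without it. In order of p the first 6 rose: Ckap2 by 1.35 (SE 0.24, adjusted p = 0.000262), Depdc1a by 1.40 (SE 0.28, adjusted p = 0.000818), Shcbp1 by 1.46 (SE 0.30, adjusted p = 0.000958), Cenpk by 1.46 (SE 0.32, adjusted p = 0.00186), Ncapg by 1.38 (SE 0.32, adjusted p = 0.00281) and Bub1 by 1.49 (SE 0.35, adjusted p = 0.00304). Called were 4 of 6 condensation genes, 4 of 7 kinetochore genes, 3 of 4 spindle-associated genes, 3 of 6 checkpoint genes, 3 of 7 kinesins and 3 of 7 kinases and cyclins. Cytokinesis gave 1 of 5 (Shcbp1), the passenger complex 1 of 6 (Tpx2) and the group with the transcription factors 1 of 4 (Depdc1a). All 5 DEN DKO arrays lay above all 3 untreated DKO arrays for 31 genes, against 8.19% of all genes. Within set 1 alone 34 genes rose, against 6.56%. The count was 11 without untreated DKO replicate 2, 13 without untreated DKO replicate 1 or DEN DKO replicate 3, and 15 without DEN DKO replicate 1, while 10 of the 23 calls stood whichever array was left out, those 6 among them. All genes called higher numbered 397, 396, 606 and 587 without these arrays, in the order named, against 716 over all arrays.

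Markers of other cell types moved with this comparison, mostly downwards. Those of neutrophils and myeloid precursors averaged 4.84 to 5.52 in DEN DKO, against 5.71 to 6.28 in untreated DKO livers, and 5 of 9 tested fell. Stellate cell and matrix markers, all 8 measured, averaged 5.17 to 5.37, against 5.90 to 5.91, and 5 of 8 fell. Endothelial markers, all 8 measured, averaged 5.79 to 6.07, against 6.74 to 6.85, and 7 of 8 fell. In each of these 3 lists the DEN DKO arrays lay below the untreated DKO arrays, and none of the genes rose. Of 7 lymphocyte markers tested 3 fell, of 8 macrophage markers 2, of 5 erythroid markers 2, of 4 cholangiocyte markers 0 and of 7 hepatocyte markers 2, and 1 hepatocyte marker rose. The share of all genes called lower was 16.5%, as above. The part of these cell types in the rise of the 52 genes was not tested.

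Whether DEN changed these genes by different amounts in DKO and in WT livers was tested as the difference of the responses. It was called for 1 gene, against 1.36% of all genes, and negative and called for 0, against 8.54%. A count of 1 in 52 is near that share, so nothing is read from it about the 52 genes. The gene was Depdc1a, at 1.38 (SE 0.39, adjusted p = 0.0229). Depdc1a read 5.24, 5.51 and 6.06 in set 1 and 5.67 and 5.22 in set 3 in DEN DKO livers and 5.32 and 5.26 in set 1 and 5.25, 5.17 and 4.91 in set 3 in DEN p53KO livers. Depdc1a in DEN RbKO livers was at 5.14, 5.05 and 5.56 in set 1 and 6.37 in set 2, against 4.39, 4.44 and 4.52 in set 1 and 3.77 and 3.97 in set 2 in DEN WT livers. For Depdc1a, untreated DKO livers gave 3.81, 4.27 and 4.55, against 3.69 and 3.80 in set 1 and 5.04 in set 2 in untreated WT livers. Its untreated WT arrays spread from 3.69 to 5.04, the highest in set 2, and its call was lost without untreated WT replicate 3 (adjusted p = 0.167), without untreated DKO replicate 1 and without DEN DKO replicate 3. The count was 2 without DEN WT replicate 1 or 2 and 3 without untreated WT replicate 1 or DEN WT replicate 3. All genes called positive numbered 220, 227, 157 and 235 without these arrays, in the order named, against 217. Those called negative numbered 1279, 1313, 1197 and 1449, against 1363. Within set 1 Depdc1a was at 0.68 (adjusted p = 0.168), the median of the 52 genes was -0.11, and 2 genes were called negative, against 6.09% of all genes: Ckap2 at -1.20 (adjusted p = 0.00856) and Spc25 at -0.69 (adjusted p = 0.0262). These 2 are a smaller part of the 52 than that share of all genes, so nothing is read from their count. Over all arrays the median was 0.21, and without set 2 it was -0.27.

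Untreated DKO livers carried higher levels than untreated WT livers for most of these genes without a call over all arrays. By limma 0 of 52 were called, against 0.865% of all genes higher and 0.244% lower, with 27 at an unadjusted p under 0.05 and a median of 0.54. The lowest adjusted p was that of Cenpa, at 0.65 (SE 0.18, adjusted p = 0.0759), followed by Cdk1, at 0.73 (SE 0.21, adjusted p = 0.104), and Ndc80, at 0.83 (SE 0.25, adjusted p = 0.105). All 3 untreated DKO arrays lay above all 3 untreated WT arrays for 41 genes, against 15.2% of all genes. Within set 1, with 2 untreated WT arrays, 36 were called higher, against 3.79%, with a median of 0.75, among them Spc25 at 1.10 (adjusted p = 0.000118) and Ccna2 at 1.13 (adjusted p = 0.000395). Without untreated WT replicate 3, the array of set 2, the fit over all other arrays called 11. Over all genes that fit called 201 higher and 110 lower, against 138 and 39 with the array. Several marker lists moved with this contrast. The mean of 10 of 10 markers of neutrophils and myeloid precursors was 5.71 to 6.28 in untreated DKO, against 4.60 to 4.78 in untreated WT livers. That of stellate cells and matrix was 5.90 to 5.91, against 5.59 to 5.85, and that of lymphocytes 4.30 to 4.49, against 4.01 to 4.29. Hepatocyte markers were lower in untreated DKO within set 1, at 11.44 to 11.46, against 11.72 and 11.89, as were endothelial markers, at 6.74 to 6.85, against 6.95 and 6.87. The part of these cell types in the result was not tested.

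After DEN, each of the 3 knockout groups was compared with the same 5 DEN WT arrays, so these comparisons share controls and are given side by side. In DEN p53KO livers 7 genes rose, against 0.708% of all genes, and 0 fell, against 1.07%, with a median of 0.60. The first 6 were Ndc80 by 1.25 (SE 0.23, adjusted p = 0.00644), Depdc1a by 1.22 (SE 0.28, adjusted p = 0.0288), Shcbp1 by 1.28 (SE 0.30, adjusted p = 0.0314), Cenpk by 1.34 (SE 0.33, adjusted p = 0.0345), Kif20b by 1.18 (SE 0.31, adjusted p = 0.0471) and Ncapg by 1.23 (SE 0.32, adjusted p = 0.0484), and Mad2l1 was the other. In DEN RbKO livers 33 rose, against 5.23%, and 0 fell, against 6.13%, with a median of 0.87, led by Ndc80 by 1.21 (SE 0.20, adjusted p = 0.00131), Shcbp1 by 1.53 (SE 0.26, adjusted p = 0.00144), Tpx2 by 1.04 (SE 0.18, adjusted p = 0.00151), Depdc1a by 1.37 (SE 0.25, adjusted p = 0.00175), Kif20b by 1.47 (SE 0.27, adjusted p = 0.00188) and Ncapg by 1.47 (SE 0.28, adjusted p = 0.00248). In DEN DKO livers 30 rose, against 2.69%, and 0 fell, against 9.14%, with a median of 0.74, led by Ndc80 by 1.44 (SE 0.21, adjusted p = 0.000172), Shcbp1 by 1.71 (SE 0.28, adjusted p = 0.000371), Depdc1a by 1.54 (SE 0.26, adjusted p = 0.000572), Ncapg by 1.503 (SE 0.30, adjusted p = 0.00197), Top2a by 1.36 (SE 0.29, adjusted p = 0.00349) and Kif20b by 1.33 (SE 0.29, adjusted p = 0.00367). The medians of all genes were -0.01, -0.04 and -0.03 in these comparisons.

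By role, the kinetochore gave 2 of 7 calls in DEN p53KO, 6 of 7 in DEN RbKO and 6 of 7 in DEN DKO livers, Cenpa being the gene not called in the last 2. Condensation genes gave 1, 5 and 5 of 6, with Ncapd2 outside, and kinesins 1, 5 and 5 of 7, with Kif20a and Kif2c outside. The checkpoint gave 1, 4 and 3 of 6, cytokinesis 1, 4 and 2 of 5, spindle-associated genes 0, 3 and 3 of 4, and kinases and cyclins 0, 3 and 3 of 7. The checkpoint genes called were Mad2l1 in all 3, Bub1 and Ttk in DEN RbKO and DEN DKO, and Bub1b in DEN RbKO, with Cdc20 and Espl1 outside. Among the kinases and cyclins, Ccna2 and Plk4 were called in DEN RbKO and DEN DKO, Cdk1 in DEN RbKO and Melk in DEN DKO. In cytokinesis Shcbp1 was called in all 3, Prc1 in DEN RbKO and DEN DKO, and Ect2 and Anln in DEN RbKO. The passenger complex with the Aurora kinases gave 0, 2 and 2 of 6, namely Tpx2 and Birc5. Of the last group, with the transcription factors, Depdc1a alone was called, in each of the 3. Foxm1 was at 0.34 (SE 0.23, adjusted p = 0.482) in DEN p53KO, 0.52 (SE 0.20, adjusted p = 0.0873) in DEN RbKO and 0.40 (SE 0.21, adjusted p = 0.248) in DEN DKO, and Mybl2 at -0.34, -0.33 and -0.54, with no call.

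Cdk1 differed from DEN WT by 0.52 (SE 0.20, adjusted p = 0.171) in DEN p53KO, 0.60 (SE 0.17, adjusted p = 0.0266) in DEN RbKO and 0.55 (SE 0.19, adjusted p = 0.0526) in DEN DKO livers. Bub1 differed by 1.28 (SE 0.35, adjusted p = 0.0585), 1.39 (SE 0.31, adjusted p = 0.00565) and 1.48 (SE 0.33, adjusted p = 0.00449) in the same order of groups, and Mki67 by 0.61 (SE 0.30, adjusted p = 0.302), 1.04 (SE 0.26, adjusted p = 0.0112) and 0.84 (SE 0.28, adjusted p = 0.0471). Ckap2 differed by -0.04 (SE 0.25, adjusted p = 0.956), 0.76 (SE 0.21, adjusted p = 0.0217) and 0.14 (SE 0.23, adjusted p = 0.754), and was thus called in DEN RbKO livers and in neither of the others. Whether these 3 effects on Ckap2 differ is answered by the comparisons of the knockout groups below. Plk1 and Aurkb were not called in any of the 3, with differences between -0.03 and 0.24.

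The DEN WT arrays of set 2 bear on all 3 comparisons. All 5 DEN DKO arrays lay above all 5 DEN WT arrays for 33 genes, against 2.23% of all genes, all 4 DEN RbKO arrays for 26, against 3.44%, and all 5 DEN p53KO arrays for 17, against 2.63%, so these genes were higher than the DEN WT arrays of both sets. Within set 1 alone, 33 genes rose in DEN DKO, against 2.88%, with a median of 0.65, 13 in DEN RbKO, against 0.959%, with a median of 0.42, and 5 in DEN p53KO, against 1.55%, with a median of 0.15. With the 2 DEN WT arrays of set 2 left out of the fit, the counts were 18 in DEN DKO, against 1.23% of all genes, 2 in DEN RbKO, against 0.119%, and 5 in DEN p53KO, against 0.213%. Without all of set 2 they were 20, against 1.52%, 6, against 0.307%, and 6, against 0.407%. Without set 2, Ndc80 was at 1.18 (adjusted p = 0.000346) in DEN DKO, 0.85 (adjusted p = 0.0333) in DEN RbKO and 0.99 (adjusted p = 0.00927) in DEN p53KO, and Top2a at 0.91 (adjusted p = 0.00358), 0.66 (adjusted p = 0.113) and 0.52 (adjusted p = 0.236).

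In DEN RbKO against DEN WT the 2 sets were far apart: within set 2, in 1 DEN RbKO against 2 DEN WT arrays, the median was 1.72, and 0.42 within set 1. The spread of DEN RbKO in set 2 was not measured, so no calls are given there. In the fit with a mean for each group in each set, added after the split was seen, that 1 array is assumed to vary like the other groups. The difference of set 1 minus that of set 2 was negative and called for 32 of 52 genes, against 7.08% of all genes, and positive and called for 0, against 2.81%, with a median of -1.23. Without DEN RbKO replicate 4, which is the set 2 array, 5 genes were called (Ndc80, Shcbp1, Tpx2, Depdc1a and Kif20b). Over all genes that fit called 71 higher, against 834 with the array, so the drop was not limited to the 52 genes. In DEN DKO the count was 17 without DEN DKO replicate 3, the array with the largest effect on it, and 17 of 30 calls stood whichever array was left out, those 6 named above among them. Without DEN DKO replicate 3 all genes gave 233 higher, against 429 with it. In DEN p53KO the count was 1 without DEN p53KO replicate 1 or replicate 2, at which Ndc80 alone stood, 4 without any one of DEN WT replicates 4 and 5 and DEN p53KO replicates 3 to 5, and 11 without DEN WT replicate 3. All genes gave 25 and 13 higher without DEN p53KO replicates 1 and 2, against 113 over all arrays. They gave 79 to 106 without the arrays named next, and 146 without DEN WT replicate 3.

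**Figure D5:**
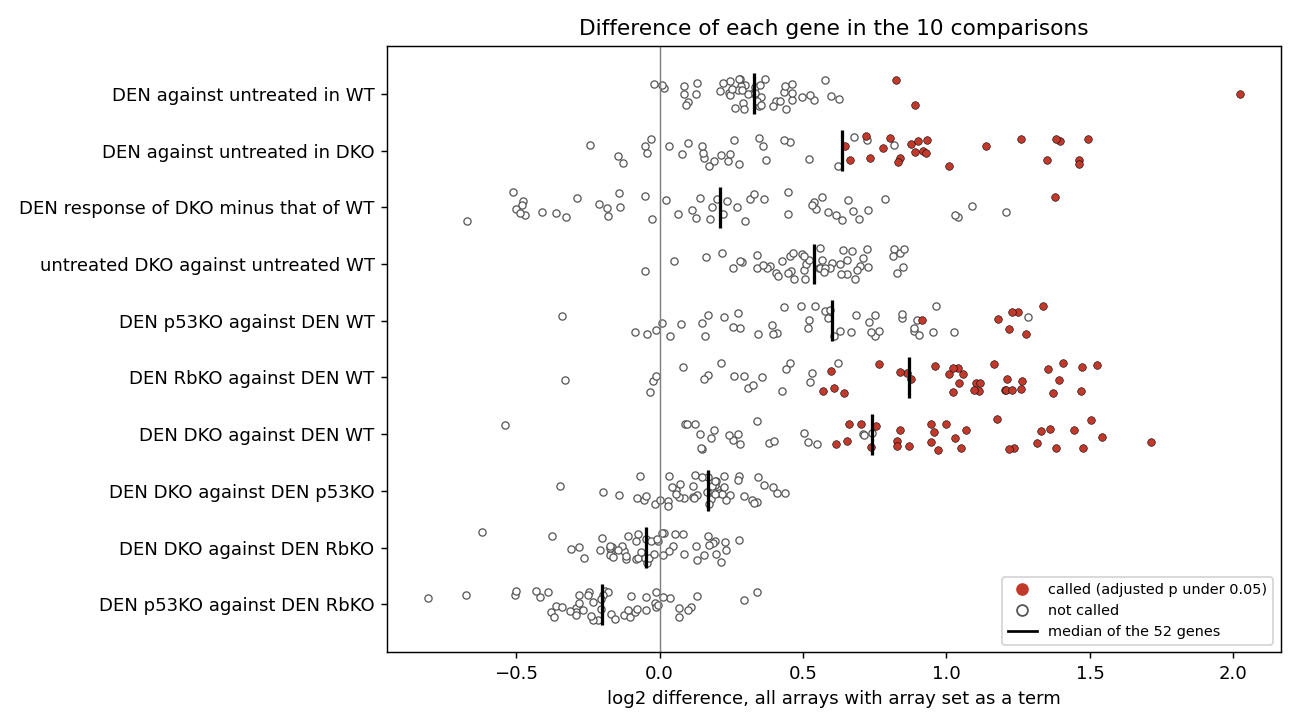
Log2 difference (x axis) of each of the 52 genes in the 10 comparisons (y axis), fitted over all arrays with the array set as a term, with called genes filled, others open and the median as a bar. The 3 comparisons of DEN-treated knockout with DEN WT livers hold 7, 33 and 30 called genes, and those between knockout groups hold 0.

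Between the knockout groups after DEN, none of the 52 genes was called over all arrays by limma. In DEN DKO against DEN p53KO 0 were called, against 0.357% of all genes higher and 1.51% lower, with a median of 0.17 and 1 unadjusted p under 0.05. In DEN DKO against DEN RbKO 0 were called, against 0.144% higher and 0.884% lower, with a median of -0.05 and 1 unadjusted p under 0.05. In DEN p53KO against DEN RbKO 0 were called, against 0.194% higher and 0.382% lower, with a median of -0.20 and 3 unadjusted p under 0.05. Ckap2 was at 0.19 (SE 0.20, adjusted p = 0.703) in DEN DKO against DEN p53KO, -0.62 (SE 0.23, adjusted p = 0.215) in DEN DKO against DEN RbKO and -0.81 (SE 0.25, adjusted p = 0.157) in DEN p53KO against DEN RbKO. A missing call does not show that the groups were alike.

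The array sets also parted within DEN p53KO. Its mean over the 52 genes was 6.28 and 6.08 in set 1, against 6.58, 6.76 and 6.72 in set 3, and the 2 sets did not overlap. Of the marker lists, 4 parted between the sets in the same direction. Those of macrophages averaged 5.99 and 6.21 in set 1, against 6.49 to 6.68 in set 3. Those of neutrophils and myeloid precursors averaged 4.76 and 4.92, against 5.35 to 5.44, and those of endothelium 5.89 and 6.06, against 6.21 to 6.34. Those of stellate cells and matrix averaged 5.02 and 5.06, against 5.21 to 5.36. None of these 4 overlapped, and the hepatocyte markers ran the other way, at 11.24 and 11.27 in set 1, against 11.08 to 11.21 in set 3. Erythroid markers also ran the other way, at 4.16 and 4.22 in set 1, against 4.03 to 4.07 in set 3. Lymphocyte and cholangiocyte markers overlapped between the sets. With 2 arrays against 3, values can part without any true difference. The share of all genes parted between these sets was not counted, so the parting is not shown to be particular to the 52 genes or these lists. The part of these cell types in the result was not tested. In DEN DKO against DEN p53KO, 7 genes were called higher within set 1, against 2.37% of all genes, with a median of 0.45 (Cdca8, Kif23, Cenpf, Top2a, Cenpe, Mki67 and Anln), and 0 within set 3, against 0.169%, where the median was -0.14 and 6 had an unadjusted p under 0.05. In the same fit of each group in each set, the difference of set 1 minus that of set 3 was positive and called for 13 of 52 genes, against 4.47% of all genes, and negative and called for 0, against 1.34%. It was 1.16 (SE 0.23, adjusted p = 0.00514) for Mki67, 1.36 (SE 0.28, adjusted p = 0.00625) for Anln and 1.02 (SE 0.22, adjusted p = 0.00738) for Cenpf. Within set 1, DEN p53KO was below DEN RbKO for 3 genes, against 2.2% of all genes: Ckap2, with a difference of -0.92 (adjusted p = 0.0132), Cdca8, with -0.58 (adjusted p = 0.031), and Cenpf, with -0.77 (adjusted p = 0.0115).

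A list of 98 other mitotic genes, of which 94 were tested, ran with the 52. Its mean over the 25 arrays correlated with theirs at 0.99, as a description of arrays that share groups and sets. Of the 94, 28 rose, against 2.69% of all genes, and 2 fell, against 9.14%, in DEN DKO against DEN WT. In DEN RbKO against DEN WT 32 rose, against 5.23%, and 1 fell, against 6.13%, and in DEN p53KO against DEN WT 5 rose, against 0.708%, and 1 fell, against 1.07%. With DEN 9 rose in WT livers, against 2.08% of all genes, and 0 fell, against 1.91%. In DKO livers 23 rose with DEN, against 4.49%, and 4 fell, against 16.5%. The mean of the 15 subunits and partners of the anaphase-promoting complex correlated with that of the 52 genes at 0.59, and those of the other 7 classes at 0.87 to 0.98. The 4 genes that fell with DEN in DKO livers were among these 15, a count from which, beside the 16.5% of all genes that fell, nothing is read about the class. From the kinetochore and checkpoint classes of the list, 2 genes are named here after their values were seen. Knl1, the scaffold that recruits the checkpoint, rose by 1.31 (SE 0.26, adjusted p = 0.00177) in DEN DKO and by 1.43 (SE 0.24, adjusted p = 0.00136) in DEN RbKO livers. Zwilch, of the complex that recruits dynein, rose by 0.95 (SE 0.20, adjusted p = 0.00257) and 1.10 (SE 0.18, adjusted p = 0.00134).

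Markers of other cell types were set beside the block. The mean of the 7 hepatocyte markers correlated with the mean of the 52 genes at -0.68 over 25 arrays and at -0.92 within set 1. It was 11.07 to 11.14 in DEN DKO, 11.08 to 11.27 in DEN p53KO, 11.06 to 11.28 in DEN RbKO and 11.17 to 11.43 in DEN WT livers. It was 11.44 to 11.46 in untreated DKO and 11.27 to 11.89 in untreated WT livers. Of the 7, 1 fell in DEN DKO against DEN WT livers, where 9.14% of all genes fell, and 1 in DEN RbKO against DEN WT livers, where 6.13% fell, so these counts are near the share of all genes, and 0 rose. The 8 endothelial markers, all measured, averaged 5.79 to 6.07 in DEN DKO, 5.89 to 6.34 in DEN p53KO, 6.12 to 6.50 in DEN RbKO and 6.38 to 6.74 in DEN WT livers, and 6.74 to 6.85 in untreated DKO and 6.37 to 6.95 in untreated WT livers (r = -0.60 with the 52 genes). In DEN DKO against DEN WT livers 6 of these 8 fell, beside that 9.14%. The erythroid markers, of which 8 of 10 were measured and 5 passed the dim filter (Epb42, Rhag and Kel did not), averaged 3.87 to 4.33 in DEN DKO, 4.03 to 4.22 in DEN p53KO, 4.02 to 4.16 in DEN RbKO, 4.14 to 4.30 in DEN WT, 4.22 to 4.41 in untreated DKO and 4.20 to 4.56 in untreated WT livers (r = -0.61). Stellate cell and matrix markers averaged 5.17 to 5.37 in DEN DKO, 5.02 to 5.36 in DEN p53KO, 5.33 to 5.48 in DEN RbKO and 5.36 to 5.62 in DEN WT livers, and 5.90 to 5.91 in untreated DKO and 5.59 to 5.85 in untreated WT livers (r = -0.49). Macrophage markers averaged 6.23 to 6.72 in DEN DKO, 5.99 to 6.68 in DEN p53KO, 6.04 to 6.49 in DEN RbKO and 6.05 to 6.99 in DEN WT livers, and 6.46 to 6.65 in untreated DKO and 6.24 to 6.55 in untreated WT livers (r = 0.23). They overlapped in all groups. Neutrophil and myeloid precursor markers averaged 4.84 to 5.52 in DEN DKO, 4.76 to 5.44 in DEN p53KO, 4.40 to 5.59 in DEN RbKO and 4.43 to 5.29 in DEN WT livers, and 5.71 to 6.28 in untreated DKO and 4.60 to 4.78 in untreated WT livers (r = 0.34). Lymphocyte markers, of which 9 of 10 were measured, averaged 3.67 to 4.32 in DEN DKO, 3.89 to 4.25 in DEN p53KO, 3.95 to 4.19 in DEN RbKO and 3.83 to 4.06 in DEN WT livers, and 4.30 to 4.49 in untreated DKO and 4.01 to 4.29 in untreated WT livers (r = -0.01), and cholangiocyte markers, of which 5 of 6 were measured, 3.90 to 4.30 in DEN DKO, 3.83 to 4.16 in DEN p53KO, 3.92 to 4.19 in DEN RbKO and 3.85 to 4.19 in DEN WT livers, and 4.06 to 4.16 in untreated DKO and 4.02 to 4.15 in untreated WT livers (r = -0.20). The part of any of these cell types in the results was not tested.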

How the data were processed

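Per the labels' protocols, liver RNA was amplified (WT-Ovation Pico), given a biotin label and put on mouse gene arrays. The deposited values are log2 signals that the authors made with RMA in Affymetrix Expression Console 1.1, per the submitters' processing notes. The sources used here do not say if a single run held the 25 arrays. The means of the arrays over the genes tested ran from 5.37 to 5.52, so centring and quantile normalization were tried. All columns were used, and 0 were left out. Of 35555 probe sets, 21789 had 1 gene symbol; the brightest of a gene was kept, and means under the 20th percentile (3.33) were left out. Group means and array set were fitted with limma 3.58.1 in R 4.3.3 (statmod 1.5.0 for the random block), two-sided, with Benjamini-Hochberg adjustment over 15951 genes, and the code was tested on simulated data. The number of arrays limits the precision, and depth has no meaning for arrays. Within-set fits used 1 set alone. Named are all 52 genes by role, a panel of 12 genes on every array (Ccnb1 unmeasured), and up to 6 called genes in order of p for each comparison; Ckap2, Ndc80, Mybl2 and Depdc1a were added with their array values after those were seen. Members, lists, tests and added fits were chosen with earlier results of these data known. Signals of different probe sets were not compared, since probes differ in brightness.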

Additional observations from a re-analysis of the deposited data

Results flagged for a closer look

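Each group of 4 or 5 arrays was searched for an array far from the others, for 20 named genes and the mean of the 52, in 84 sets of values. Chance marks about 5% of such groups, and 4 of the 84 were found. That is near the share from chance, so they are given as values and nothing is read from them. Cdk1 was far lower on DEN RbKO replicate 4 (5.97) than on the other 3 DEN RbKO arrays (7.05 to 7.22). The same array, which is of set 2, was far higher for Mki67 (8.43, against 7.28 to 7.45 on the others) and for Kif20b (7.35, against 6.70 to 6.77). Spc25 was lowest on DEN p53KO replicate 3 (8.36), with the other 4 arrays at 8.44 to 8.47. Depdc1a was the gene for which the DEN response differed between DKO and WT livers by test, at 1.38 on the log2 scale (adjusted p = 0.0229 by limma), and the call was lost when any of 3 arrays was left out, as given above. This single call is near the share of all genes.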

How the results depend on the processing

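Counts of called genes under other settings were as follows where they moved by over 1.5 times. Set 2 alone is left out, since the spread of a group with 1 array was not measured there. DEN in WT gave 3, against 1 with no set term or with only the groups compared, 40 within set 1, 35 without set 2, 28 without the DEN WT arrays of set 2 (an alternative chosen after seeing the data) and 36 with array weights. Over all genes DEN in WT called 331 higher, against 72 with no set term and 97 with only the groups compared. That number was 797 within set 1, 510 without set 2, 401 without the DEN WT arrays of set 2 and 923 with array weights. DEN in DKO gave 23, against 15 with arrays centred on their medians, while all genes gave 716 higher, against 356. The difference of these responses gave 1, against 0 with no set term or with only the groups compared, 2 within set 1 or without set 2, and 3 with array weights. Untreated DKO against untreated WT gave 0, against 36 within set 1, 26 without set 2, 1 with centring, 40 with array weights and 37 with only the groups compared. Over all genes it called 138 higher, against 604, 330, 242, 1059 and 731 in the same order of settings. DEN p53KO against DEN WT gave 7, against 34 with no set term, 21 with the set as a random block, 4 with no filter, with centring or with quantile normalization, 3 with trend and robust settings and 2 with only the groups compared. All genes gave 113 higher here, against 543, 249, 89, 79, 106, 107 and 25 in the same order of settings. DEN RbKO against DEN WT gave 33, against 13 within set 1, 6 without set 2 and 2 without the DEN WT arrays of set 2. DEN DKO against DEN WT gave 30, against 18 without those 2 arrays. All genes gave 834 higher in DEN RbKO, against 153, 49 and 19, and 429 higher in DEN DKO, against 196, in the same order. DEN DKO against DEN p53KO gave 0, against 7 within set 1, and DEN p53KO against DEN RbKO 0, against 3 within set 1 or with only the groups compared and 1 without set 2 or with array weights. With 1 array left out, the counts ran from 1 to 13, 11 to 24, 0 to 3, 0 to 11, 1 to 11, 5 to 38 and 17 to 32 in the order of the first 7 comparisons here, and were 0 in the other 3. In those 7, all genes called higher ran from 142 to 393, 396 to 715, 109 to 235, 37 to 201, 13 to 169, 71 to 958 and 233 to 521. Of 629 values of single named genes under alternatives, 562 kept direction and call, 66 kept direction only, and Spc25 reversed within set 2 for DEN in WT (-0.32). The causes were not tested. No paired analysis was possible because the replicate numbers are names in order of deposit and the labels pair no arrays. Limits are the 2 DEN WT and 1 untreated WT arrays of set 2, sets that hold different groups, 3 to 5 arrays a group, whole tissue, and the unmeasured Ccnb1.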

Other observations

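Of the 94 other mitotic genes tested, 3 were called in 5 or more of the 10 comparisons and are described here. They were picked for these calls after their values were seen. Psrc1, a proline-rich microtubule protein described as a target of p53, read 4.57, 4.35 and 4.77 in set 1 and 4.72 and 4.94 in set 3 in DEN DKO livers and 4.38 and 4.67 in set 1 and 4.08, 4.74 and 4.64 in set 3 in DEN p53KO livers. Psrc1 in DEN RbKO livers was at 5.58, 5.52 and 5.79 in set 1 and 4.90 in set 2, against 5.82, 5.88 and 5.22 in set 1 and 5.05 and 5.15 in set 2 in DEN WT livers. For Psrc1, untreated DKO livers gave 4.10, 3.92 and 4.18, against 3.86 and 3.81 in set 1 and 4.41 in set 2 in untreated WT livers. It rose with DEN in WT livers by 1.42 (SE 0.20, adjusted p = 9.16e-05), and by limma it was lower than in DEN WT in DEN p53KO livers, at -1.11 (SE 0.21, adjusted p = 0.00855), and in DEN DKO livers, at -0.92 (SE 0.20, adjusted p = 0.00326), with DEN RbKO at -0.02 (SE 0.18, adjusted p = 0.958). Leaving out DEN p53KO replicate 1 put the DEN p53KO value at adjusted p = 0.0506, and no array ended the other 2 calls.

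Mybl1, the gene of A-Myb, a relative of B-Myb, read 5.06, 4.69 and 5.31 in set 1 and 6.63 and 5.46 in set 3 in DEN DKO livers and 5.29 and 5.38 in set 1 and 5.50, 5.79 and 5.16 in set 3 in DEN p53KO livers. Mybl1 in DEN RbKO livers was at 6.70, 6.30 and 6.66 in set 1 and 7.29 in set 2, against 6.57, 6.00 and 5.36 in set 1 and 5.43 and 4.93 in set 2 in DEN WT livers. For Mybl1, untreated DKO livers gave 3.52, 3.57 and 4.16, against 2.93 and 3.82 in set 1 and 3.97 in set 2 in untreated WT livers. It rose with DEN in WT by 2.08 (SE 0.32, adjusted p = 0.000299) and in DKO livers by 1.44 (SE 0.34, adjusted p = 0.00304), and no array ended either call. By limma the difference of DEN DKO from DEN RbKO was -1.54 (SE 0.32, adjusted p = 0.0153) and that of DEN p53KO from DEN RbKO -1.67 (SE 0.34, adjusted p = 0.0197). The first was lost without DEN DKO replicate 1 or 2 (adjusted p up to 0.0668), and the second without DEN p53KO replicate 1 or DEN RbKO replicate 1 or 4 (up to 0.0638). All DEN arrays of every genotype lay above all untreated arrays for Mybl1, those of DEN WT in set 2 included.

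Pttg1, the gene of securin, the inhibitor of separase, read 8.69, 8.52 and 8.65 in set 1 and 8.38 and 8.37 in set 3 in DEN DKO livers and 8.54 and 8.31 in set 1 and 8.32, 8.56 and 8.46 in set 3 in DEN p53KO livers. Pttg1 in DEN RbKO livers was at 7.65, 7.33 and 7.39 in set 1 and 6.52 in set 2, against 8.22, 7.90 and 7.98 in set 1 and 6.47 and 6.28 in set 2 in DEN WT livers. For Pttg1, untreated DKO livers gave 7.80, 7.42 and 7.93, against 6.56 and 6.89 in set 1 and 5.84 in set 2 in untreated WT livers. DEN DKO exceeded DEN RbKO by 1.03 (SE 0.16, adjusted p = 0.000926) and DEN p53KO exceeded DEN RbKO by 0.97 (SE 0.17, adjusted p = 0.00443), and the arrays of those groups did not overlap. No array ended either call. Among the 52 genes none was called between these groups over all arrays.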
